A study of Mus musculus with 12 samples.

Results

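The comparison set 2 knockdown lines side by side, one with reduced PRMT1 (siPRMT1) and one with reduced PRMT8 (siPRMT8), without a control line between them. Its members were the 6 arrays whose titles name these lines, 3 of each, out of 12 arrays in the series. Both lines derive from D3, an embryonic stem cell line of the mouse, and all cultures were differentiated through embryoid bodies in the absence of LIF, the factor that holds stem cells undifferentiated, and collected as neurons on day 16, with no further treatment. The other 6 arrays were 3 of unmodified D3 cells and 3 of a line with a scrambled sequence (siSCR), also on day 16. Each knockdown group is 1 engineered line, so the knockdown and the history of the line cannot be told apart, and the labels do not say whether the 3 biological replicates were separate differentiations. The p-values therefore measure the spread between these cultures.

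PRMT1 and PRMT8 are protein arginine methyltransferases that place asymmetric dimethyl marks on arginines of histones, RNA-binding proteins and signalling proteins. PRMT1 is found in nearly every cell and carries most of this activity, whereas PRMT8, its closest relative, is anchored to the plasma membrane and is known mainly from neurons. A direct comparison of the lines gives the genes that differ between them. The difference itself does not pass through a control line, but the control arrays entered the estimate of the spread.

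Expression was read as 1 log2 value per probe set, so a difference of 1 is a 2-fold difference. Differences below are siPRMT1 minus siPRMT8, so that a positive value is higher in the PRMT1 knockdown. They were tested with limma in 14953 genes, and a gene was called at a Benjamini-Hochberg adjusted p under 0.05. No detection call was used here, and levels of different genes are not comparable with each other. The number of arrays limits the precision.

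Across all 14953 genes siPRMT1 replicate 2 stood apart from its own group. Its Pearson r across genes was 0.9717 and 0.9803 with siPRMT1 replicates 1 and 3, whereas these 2 arrays reached 0.9949 with each other. With the siPRMT8 arrays siPRMT1 replicate 2 reached 0.9816 to 0.9917 and siPRMT1 replicates 1 and 3 0.9815 to 0.9926, and the siPRMT8 arrays reached 0.9931 to 0.9943 among themselves. Counts are therefore given with all arrays and without siPRMT1 replicate 2, and the genes named from the smaller set with their values in both fits. That array was singled out from these same values, so p-values without it describe the remaining 5 knockdown arrays and are not those of a comparison set up independently of the data. Neuronal genes were present in all 6 arrays: Stmn2, a stathmin of growing axons, read 11.10 to 11.43 and Snap25, a vesicle fusion protein, 8.63 to 8.84. The pluripotency factors Pou5f1 (10.04 to 10.52) and Nanog (10.37 to 11.23) were read beside them. The mean level of 28 pan-neuronal genes was 7.98 to 8.07 in siPRMT1, 7.99 to 8.26 in siPRMT8, 9.15 to 9.22 in D3 and 8.35 to 9.22 in siSCR, where replicate 1 was the lowest. In such bulk cultures fewer cells of a type and less RNA per cell cannot be told apart.

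With all arrays, 23 genes differed between the knockdowns, 13 higher and 10 lower in siPRMT1. This was 0.154% of the genes tested (0.0869% higher and 0.0669% lower). Without siPRMT1 replicate 2 the count was 862, or 5.76%, with 574 higher (3.84%) and 288 lower (1.93%). All 23 genes were called in the same direction in both fits, and for all 23 the 3 siPRMT1 and the 3 siPRMT8 arrays did not overlap, which was so for 15.8% of all genes. Their differences ran from 1.31-fold to 2.81-fold, and 2 genes, Prmt1 and Pga5, reached 2-fold. The median difference of all genes was 0.01 with all arrays and 0.009 without siPRMT1 replicate 2. The spread behind the 23 calls was estimated from all 12 arrays, controls included. With only the 6 knockdown arrays fitted, or with D3 left out of the fit, 2 genes were called, 1 higher and 1 lower. Leaving out 1 array at a time gave 6 genes without siPRMT1 replicate 1, 2 without siPRMT1 replicate 3, 9 without siPRMT8 replicate 1, 3 without siPRMT8 replicate 2 and 2 without siPRMT8 replicate 3. Prmt1 and Pga5 passed in all 6 of these fits, and the other 21 genes passed in 1 to 3 of them, with highest adjusted p-values of 0.117 to 0.322. The sign of all 23 differences was the same in every fit. Without siPRMT1 replicate 2 no difference of the 23 moved by more than 0.125 (Aspa), and their adjusted p-values were 3.39e-06 to 0.0189.

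**Figure D1:**
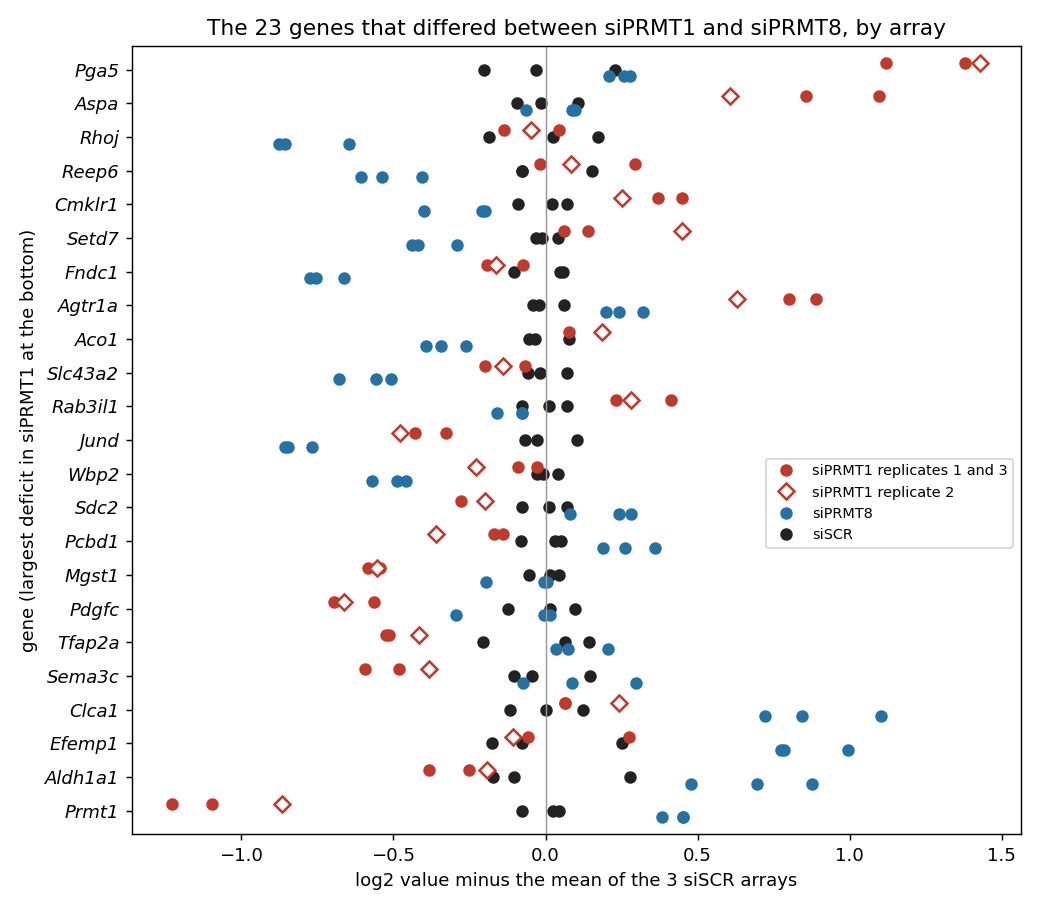
The log2 value of each array minus the mean of the 3 siSCR arrays (horizontal axis) for the 23 called genes (vertical axis), with siPRMT1 in red, siPRMT1 replicate 2 as an open diamond, siPRMT8 in blue and siSCR in black. The red and the blue points of each gene do not overlap, and the open diamond lies on the side of the other siPRMT1 arrays in all 23 genes.

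The targeted genes came first among the members because they check the labels. Prmt1 gave 7.72, 7.95 and 7.59 in siPRMT1 replicates 1 to 3 against 9.27, 9.20 and 9.27 in siPRMT8, while the 6 control arrays gave 8.69 to 8.86. All 3 siPRMT1 arrays lay below the controls and all 3 siPRMT8 arrays above them, and siPRMT1 replicate 2 had the low Prmt1 of its group although across genes it correlated better with siPRMT8 than with its own group. The direct difference of -1.49 (SE 0.0885, 2.81-fold lower, adjusted p = 2.36e-05, n = 3 per group) was larger than either knockdown's own distance from siSCR, which was -1.06 for siPRMT1 and 0.43 for siPRMT8. Without siPRMT1 replicate 2 it was -1.59 (adjusted p = 3.39e-06). Prmt8, the other target, gave 6.35, 6.89 and 6.67 in siPRMT1 and 6.44, 6.17 and 6.44 in siPRMT8. The siSCR arrays gave 6.60 to 7.18 and the D3 arrays 7.37 to 7.41. The knockdown groups overlapped, and the difference of 0.29 was not called (adjusted p = 0.489). Prmt8 thus did not separate the line labelled for its own knockdown from the PRMT1 knockdown on these arrays. Against the controls, Prmt8 was called as lower in siPRMT8 (-0.61 from siSCR, adjusted p = 0.0171, and -1.04 from D3, adjusted p = 0.000993). In siPRMT1 it was called as lower against D3 (-0.755, adjusted p = 0.00488) and not called against siSCR (-0.32, adjusted p = 0.177). Of the 10 arginine methyltransferase genes tested, Prmt1 was the only one called with all arrays. Prmt7, which adds monomethyl marks, read 9.20, 8.73 and 9.27 in siPRMT1 against 8.83, 8.95 and 8.80 in siPRMT8, and was called as higher only without siPRMT1 replicate 2 (0.37, adjusted p = 0.0219, and 0.21 with all arrays, adjusted p = 0.522).

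The called genes are taken by what their products do, starting with secreted proteins, receptors and matrix proteins. Pga5, a pepsinogen that is the inactive precursor of a stomach protease, gave 9.80, 9.85 and 9.54 in siPRMT1 and 8.70, 8.63 and 8.68 in siPRMT8. It was higher by 1.06 (SE 0.108, 2.09-fold, adjusted p = 0.00407), and the siPRMT8 arrays stood near the controls, which gave 8.22 to 8.65. Pga5 was the one called gene among the 6 tested pepsinogen and digestive enzyme genes. Agtr1a, a receptor for angiotensin II, gave 8.22, 7.96 and 8.13 against 7.57, 7.53 and 7.65, with controls at 7.29 to 7.61 (difference 0.52, SE 0.0725, adjusted p = 0.0214). Cmklr1, the receptor for the chemoattractant chemerin, gave 6.83, 6.71 and 6.91 against 6.26, 6.25 and 6.06, with controls at 6.37 to 6.74 (difference 0.62, SE 0.0827, adjusted p = 0.0162). For Agtr1a the siPRMT1 arrays stood above the controls, and for Cmklr1 the siPRMT8 arrays stood below them. Fndc1, a protein with fibronectin domains, gave 8.28, 8.19 and 8.16 against 7.60, 7.69 and 7.58 (difference 0.59, SE 0.0762, adjusted p = 0.0162).

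In the opposite direction, Efemp1, the matrix glycoprotein fibulin-3, gave 7.65, 7.27 and 7.32 in siPRMT1 against 8.15, 8.16 and 8.37 in siPRMT8 (difference -0.82, SE 0.121, adjusted p = 0.0319). Clca1, a secreted protein of mucus-forming cells that regulates chloride channels, gave 5.40, 5.58 and 5.40 against 6.06, 6.44 and 6.18 (difference -0.77, SE 0.0982, adjusted p = 0.0162). Both read close to the controls in siPRMT1 (7.20 to 7.63 for Efemp1 and 5.22 to 5.46 for Clca1) and higher in siPRMT8. Clca1 was dim elsewhere, with means of 5.32 in D3, 5.34 in siSCR and 5.46 in siPRMT1. Genes with a mean under 5.43 were left out of the test, and Clca1 would not have passed that filter without its siPRMT8 arrays. Sema3c, a secreted semaphorin that steers axons and migrating cells, gave 7.44, 7.54 and 7.33 against 7.85, 8.01 and 8.22 (difference -0.59, SE 0.0956, adjusted p = 0.0417). Pdgfc, a platelet-derived growth factor, gave 7.62, 7.65 and 7.75 against 8.02, 8.31 and 8.33 (difference -0.55, SE 0.0913, adjusted p = 0.0493). Sdc2, a syndecan that carries heparan sulphate at the cell surface, gave 7.35, 7.43 and 7.43 against 7.71, 7.91 and 7.87 (difference -0.43, SE 0.067, adjusted p = 0.0357). In all 3 of these the siPRMT1 arrays were the lower group, and for Sdc2 the controls at 7.55 to 7.70 lay between the knockdowns.

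Enzymes formed a further set. Aldh1a1, a retinaldehyde dehydrogenase that makes retinoic acid, gave 5.71, 5.90 and 5.84 in siPRMT1 against 6.57, 6.79 and 6.97 in siPRMT8 (difference -0.96, SE 0.135, 1.95-fold lower, adjusted p = 0.0214). The D3 arrays gave 5.45 to 5.80 and the siSCR arrays 5.92 to 6.37, so the siPRMT8 arrays were the ones above every control. Aldh1a7, a close paralog whose probe set could share signal with it, gave 6.22, 6.23 and 6.26 against 6.64, 7.27 and 7.47, which do not overlap but were not called (difference -0.89, adjusted p = 0.132). Of the 22 retinoid genes tested, Aldh1a1 alone was called with all arrays. Mgst1, a membrane-bound glutathione transferase, gave 7.48, 7.51 and 7.52 against 7.87, 8.07 and 8.06 (difference -0.50, SE 0.0663, adjusted p = 0.0162), and here it was siPRMT1 that stood below every control (7.88 to 8.11). Pcbd1, a pterin dehydratase, was lower in siPRMT1 as well (difference -0.49, SE 0.0736, adjusted p = 0.0319).

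Aspa, the aspartoacylase that breaks down N-acetylaspartate in oligodendrocytes, gave 7.46, 6.97 and 7.22 in siPRMT1 against 6.30, 6.45 and 6.46 in siPRMT8. It was higher by 0.81 (SE 0.127, 1.76-fold, adjusted p = 0.0357), and the siPRMT8 arrays lay within the range of the controls (6.16 to 6.57). Among the 12 oligodendrocyte genes tested, none was called with all arrays (Aspa was not on that list). Aco1, the cytosolic aconitase that also acts as an iron sensor, gave 9.21, 9.32 and 9.32 against 8.79, 8.74 and 8.87 (difference 0.48, SE 0.0617, adjusted p = 0.0162). Setd7, a lysine methyltransferase, gave 7.92, 8.31 and 8.00 against 7.42, 7.44 and 7.57 (difference 0.60, SE 0.0922, adjusted p = 0.0336). For Aco1 and Setd7 the siPRMT8 arrays were below every control array.

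The regulators and membrane proteins in the list were Tfap2a, Jund, Wbp2, Rhoj, Reep6, Slc43a2 and Rab3il1. Tfap2a, a transcription factor of neural crest and epidermis, gave 7.03, 7.13 and 7.02 in siPRMT1, 7.58, 7.75 and 7.62 in siPRMT8, 7.34 to 7.69 in siSCR and 8.60 to 8.85 in D3 (difference -0.59, SE 0.0965, adjusted p = 0.0443). The D3 arrays were the highest and siPRMT1 the lowest, which leaves siSCR and siPRMT8 together in between. Jund, a subunit of the transcription factor AP-1, gave 8.34, 8.19 and 8.24 against 7.82, 7.81 and 7.90, with controls at 8.53 to 8.77 (difference 0.42, SE 0.0668, adjusted p = 0.0417). Both knockdowns were thus below the controls, siPRMT8 further than siPRMT1. Rhoj, a small GTPase known from blood vessel cells, gave 7.47, 7.56 and 7.65 against 6.73, 6.96 and 6.75 (difference 0.74, SE 0.0935, adjusted p = 0.0162). Reep6, which shapes the endoplasmic reticulum, Slc43a2, an amino acid transporter, Wbp2, a coactivator, and Rab3il1, an exchange factor for Rab proteins, were higher in siPRMT1 by 0.64, 0.45, 0.39 and 0.42.

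Set beside the controls, the 23 genes did not depart in one line only. siPRMT1 was called against both siSCR and D3 in 1 direction, with siPRMT8 not so called, for 7 genes: Agtr1a, Aspa, Mgst1, Pdgfc, Pga5, Rab3il1 and Tfap2a. siPRMT8 was so called, with siPRMT1 not, for 11 genes: Aco1, Aldh1a1, Clca1, Cmklr1, Efemp1, Fndc1, Pcbd1, Rhoj, Setd7, Slc43a2 and Wbp2. For 3 genes both knockdowns were, with Jund lower in both and Prmt1 and Sdc2 in opposite directions, and for Reep6 and Sema3c neither was. Over all genes siPRMT1 was called in 18.7% against siSCR and 26.4% against D3, and siPRMT8 in 23.8% and 27.7%. These comparisons share arrays with the direct one and with each other, so the counts describe where the groups lie and are no further support.

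Leaving siPRMT1 replicate 2 out raised the count to the 862 genes, which include all 23. These were selected with that array out, so its place among them is partly set by the choice and is given as a description. In 697 of the 862 (80.9%) siPRMT1 replicate 2 lay nearer the siPRMT8 mean than the mean of siPRMT1 replicates 1 and 3, against 61.0% of all genes, and in 450 (52.2%) it lay beyond the siPRMT8 mean, against 49.3% of all genes. siPRMT8 replicate 2 was the siPRMT8 array nearest to siPRMT1 replicates 1 and 3 in 611 of the 862. The share over all genes was not counted. Across all genes siPRMT8 replicate 2 also had the highest Pearson r of the siPRMT8 arrays with siPRMT1 replicates 1 (0.9889) and 3 (0.9926), so this is not particular to the 862. With siPRMT1 replicate 2 put back, 312 of the 862 (36.2%) still had both groups apart, against 15.8% of all genes. The count of 862 fell to 5 when siPRMT1 replicate 1 was left out too, to 418 without siPRMT1 replicate 3, to 174 without siPRMT8 replicate 1 and to 66 without siPRMT8 replicate 3, and it was 1108 without siPRMT8 replicate 2. In these fits siPRMT1 keeps 2 arrays, or 1, and is assumed to vary like the other groups. At 2-fold or more, 22 genes were higher and 17 lower.

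Of the 19 tested genes of the germline and DNA methylation list, 8 were called as higher and 0 as lower without siPRMT1 replicate 2, with a median difference of 0.42 against 0.009 for all genes. With all arrays, none of the 19 was called. The lists were written with earlier results of these data known, and the array left out was singled out from the same values. The list counts here and below are therefore descriptions. Counts of list members here and below are of those above the filter on dim genes, here 19 of 24 on the array. The shares of all genes to set beside each count without siPRMT1 replicate 2 are 3.84% higher and 1.93% lower. DNA methylation is laid down by the DNMT enzymes and removed through the TET enzymes, and in most cells it keeps genes of meiosis and germ cells silent; promoters of such genes often hold the letters of an E-box or of an E2F site. Of the 8 called genes 7 had an entry in the RefSeq promoter table (GRCm38.p6), and the 250 bases before the start were searched for CACGTG and for GCGGGAA, on both strands (the former reads the same on both, and the motifs do not overlap each other). A gene was counted if any of its starts in the table had the letters. CACGTG was found for 4 of the 7 (Dnmt3l, Mael, Stag3 and Sycp3; for Dnmt3l before 1 of its 3 starts) against 6.86% of all genes in the table, and GCGGGAA for 1 (Sycp3) against 4.38%. The windows of Mael, Sycp3 and Stag3 are shown, with these letters in capitals, as those with 1 start and a match; Dazl, Tet1 and Tex101 also have 1 start and no match.
Mael, chr1:166238745-166238994, minus strand: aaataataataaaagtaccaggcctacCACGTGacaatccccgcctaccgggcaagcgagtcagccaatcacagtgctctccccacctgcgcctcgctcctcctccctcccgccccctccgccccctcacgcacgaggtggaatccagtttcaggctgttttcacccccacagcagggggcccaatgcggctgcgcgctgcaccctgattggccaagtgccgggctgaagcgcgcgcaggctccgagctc
Sycp3, chr10:88459337-88459586, plus strand: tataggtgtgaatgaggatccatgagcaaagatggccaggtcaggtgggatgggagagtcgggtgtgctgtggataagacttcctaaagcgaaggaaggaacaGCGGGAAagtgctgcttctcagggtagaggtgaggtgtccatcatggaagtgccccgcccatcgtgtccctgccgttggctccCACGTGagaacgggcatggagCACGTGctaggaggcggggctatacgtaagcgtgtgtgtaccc
Stag3, chr5:138280259-138280508, plus strand: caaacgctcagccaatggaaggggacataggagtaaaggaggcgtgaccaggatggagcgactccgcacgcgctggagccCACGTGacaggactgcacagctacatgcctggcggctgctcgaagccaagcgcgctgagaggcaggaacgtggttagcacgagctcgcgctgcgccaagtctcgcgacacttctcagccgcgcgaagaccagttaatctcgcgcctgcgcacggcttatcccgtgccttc
A match is a description of the letters and not of binding.

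Dnmt3l, the cofactor of the DNA methyltransferases in germ cells and early embryos, gave 9.65, 6.40 and 9.23 in siPRMT1 and 6.55, 8.08 and 6.61 in siPRMT8, with controls at 8.40 to 9.46. siPRMT1 replicates 1 and 3 were within or above the range of the controls, siPRMT8 replicate 2 was lower, and siPRMT8 replicates 1 and 3 and siPRMT1 replicate 2 were lowest. The difference was 2.36 without siPRMT1 replicate 2 (SE 0.4, 5.14-fold, adjusted p = 0.0135) and 1.35 with it (adjusted p = 0.462). Dazl, an RNA-binding protein that germ cells need, gave 7.83, 5.13 and 7.32 against 5.33, 6.36 and 5.46, with the arrays in the same order (1.87 without siPRMT1 replicate 2, SE 0.314, adjusted p = 0.0134, and 1.05 with all arrays, adjusted p = 0.475). Tet1, an oxidase of methylated cytosine, gave 10.93, 9.73 and 10.69 against 10.16, 10.42 and 10.09 (0.58, SE 0.0991, adjusted p = 0.0136, and 0.22 with all arrays, adjusted p = 0.742).

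Mael, a protein of the piRNA pathway that silences transposons, gave 9.50, 6.92 and 9.22 in siPRMT1 against 7.61, 8.45 and 7.80 in siPRMT8 (1.41, SE 0.211, adjusted p = 0.00915, and 0.60 with all arrays, adjusted p = 0.68). Sycp3, a part of the synaptonemal complex that pairs chromosomes in meiosis, gave 7.59, 5.29 and 7.34 against 6.22, 7.13 and 6.49 (0.85, SE 0.21, adjusted p = 0.0399, and 0.13 with all arrays, adjusted p = 0.941). In both genes siPRMT1 replicate 2 was the lowest of the 6 arrays. With replicate 2 kept and siPRMT1 replicate 1 left out instead, the differences of Sycp3, Tet1 and Stag3 were -0.297, -0.02 and -0.009, on the other side of 0. Stag3, a meiotic cohesin subunit, gave 8.97, 7.23 and 8.73 against 7.82, 8.44 and 7.72 (0.86, SE 0.181, adjusted p = 0.0246, and 0.32 with all arrays, adjusted p = 0.762), and Smc1b, another one that is not on the list, gave 7.20, 4.96 and 6.87 against 5.29, 6.34 and 5.74 (1.24, SE 0.269, adjusted p = 0.0265, and 0.55 with all arrays, adjusted p = 0.677). Tex101, a surface protein of germ cells, and Piwil2, a piRNA-binding protein, followed the labels more closely. Tex101 gave 5.95, 5.71 and 5.89 against 5.54, 5.43 and 5.33, and its groups do not overlap even with siPRMT1 replicate 2 (0.49 without it, adjusted p = 0.0148, and 0.42 with it, adjusted p = 0.0941). Its siPRMT8 values lie near the cut of 5.43 of the filter on dim genes, so the Tex101 difference rests on dim values. The levels of Dnmt1 (9.57, 9.74 and 9.67 against 9.59, 9.47 and 9.53) and Dnmt3b (8.58, 9.01 and 9.01 against 9.11, 8.60 and 8.98), which copy and set methylation, overlapped between the lines and were not called in either fit.

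**Figure D2:**
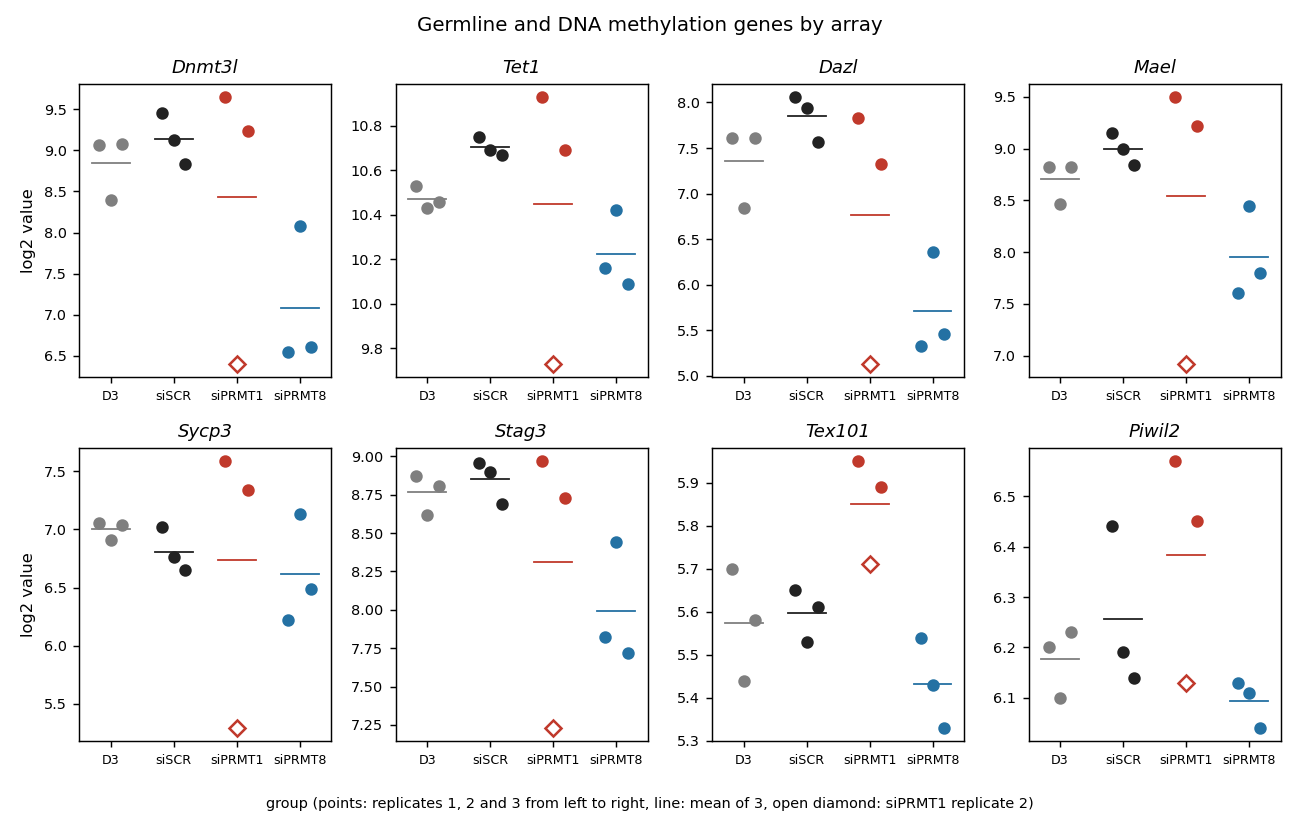
The log2 value (vertical axes) of the 8 called genes of the germline and DNA methylation list in all 12 arrays, by group (horizontal axes), with points for replicates, a line for the mean of 3 and an open diamond for siPRMT1 replicate 2. In Dnmt3l, Dazl, Mael, Sycp3, Stag3 and Tet1 the open diamond is the lowest of the 12 points, whereas in Tex101 it stays above the siPRMT8 arrays.

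Of the genes outside the list, these had the largest positive differences. Usp26, a testis deubiquitinase, gave 9.05, 7.03 and 8.69 against 7.15, 7.85 and 7.09 (1.51, SE 0.231, adjusted p = 0.0107, and 0.89 with all arrays, adjusted p = 0.415). Scml2, a Polycomb protein of the germline, gave 8.48, 6.52 and 8.28 against 6.73, 7.55 and 6.64 (1.41, SE 0.246, adjusted p = 0.0143, and 0.79 with all arrays, adjusted p = 0.485). Inpp5d, a lipid phosphatase of blood cells, gave 8.16, 6.27 and 7.87 against 6.54, 7.15 and 6.22 (1.38, SE 0.241, adjusted p = 0.0143, and 0.80 with all arrays, adjusted p = 0.451), and Susd2, a surface protein, gave 7.76, 6.15 and 7.26 against 6.14, 6.44 and 5.97 (1.33, SE 0.185, adjusted p = 0.00671, and 0.87 with all arrays, adjusted p = 0.305). In each of these siPRMT1 replicates 1 and 3 were the 2 highest arrays of the 6, and their place above the siPRMT8 arrays was required by the rule that named these genes.

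Of 25 pluripotency genes tested, 5 were called as higher and 0 as lower without siPRMT1 replicate 2 (median 0.29), and none was called with all arrays. Fgf4, a growth factor of the inner cell mass, gave 9.37, 7.88 and 9.19 in siPRMT1 against 8.14, 8.64 and 8.09 in siPRMT8 (0.99, SE 0.165, 1.99-fold, adjusted p = 0.0132, and 0.52 with all arrays, adjusted p = 0.531). Dppa3, which protects methylation in the early embryo, gave 6.71, 5.52 and 6.43 against 5.60, 6.03 and 5.63 (0.82, SE 0.184, adjusted p = 0.0298, and 0.47 with all arrays, adjusted p = 0.502). Utf1, Esrrb and Tfcp2l1, transcription regulators of stem cells, were higher by 0.66, 0.52 and 0.51. The core factors Pou5f1, Nanog and Sox2 were not called (0.26, 0.29 and 0.15, adjusted p = 0.093, 0.157 and 0.46).

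Of the 288 genes lower in siPRMT1 without siPRMT1 replicate 2, the rule for the largest differences named Cyp2f2, Krt15, Prmt1, S100g, Krt13, Anxa10, Agr2 and Sprr1a, and Krt19 came from the list of epithelial genes. Mir302d, which the rule leaves out as a microRNA, lay between Krt15 and Prmt1 at -1.73, and Vsig1 (-1.24), Fgf15 (-1.19), Krt4 (-1.18) and Sptssb (-1.17) lay between Sprr1a and Krt19. Of these, Mir302d, Krt4 and Sptssb would not have passed the filter on dim genes without their siPRMT8 arrays. Cyp2f2, a cytochrome of airway club cells, gave 6.67, 8.08 and 6.51 in siPRMT1 against 8.53, 9.17 and 9.38 in siPRMT8 (-2.44 without siPRMT1 replicate 2, SE 0.317, 5.41-fold lower, adjusted p = 0.00538, and -1.94 with it, adjusted p = 0.0913). The D3 arrays gave 6.12 to 6.69 and the siSCR arrays 7.94 to 8.99, so siPRMT1 replicates 1 and 3 were at the level of D3 and siPRMT8 within or above the range of siSCR. Krt15, a keratin of basal epithelial cells, gave 6.46, 7.10 and 6.37 against 7.95, 8.18 and 8.59 (-1.82, SE 0.318, adjusted p = 0.0141, and -1.60 with all arrays, adjusted p = 0.0786). Krt13, a keratin of internal stratified epithelia, gave 6.37, 7.30 and 6.14 against 7.54, 7.45 and 7.78 (-1.33, SE 0.237, adjusted p = 0.0153, and -0.98 with all arrays, adjusted p = 0.221), and Krt19, a keratin of simple epithelia, gave 8.28, 8.45 and 8.11 against 9.23, 9.34 and 9.52 (-1.17, SE 0.227, adjusted p = 0.0198, and -1.08 with all arrays, adjusted p = 0.0719).

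S100g, a calcium-binding protein of absorptive cells, gave 6.41, 7.58 and 7.0 against 8.17, 8.06 and 8.44 (-1.52, SE 0.173, adjusted p = 0.00454, and -1.23 with all arrays, adjusted p = 0.0705). Agr2, a protein of the endoplasmic reticulum that mucus-forming cells need, gave 7.41, 6.95 and 6.84 against 7.93, 8.50 and 8.72 (-1.26, SE 0.302, adjusted p = 0.0366, and -1.32 with all arrays, adjusted p = 0.0893). Anxa10, an annexin of stomach lining, gave 5.67, 5.87 and 5.11 against 6.73, 6.22 and 7.16 (-1.31, SE 0.329, adjusted p = 0.0422, and -1.15 with all arrays, adjusted p = 0.176), and Sprr1a, a protein of the cornified layer, gave 7.18, 7.83 and 6.57 against 8.09, 7.96 and 8.35 (-1.26, SE 0.215, adjusted p = 0.0137, and -0.94 with all arrays, adjusted p = 0.209). In Cyp2f2, the 3 keratins, S100g, Agr2, Anxa10 and Sprr1a the 3 siPRMT1 arrays lay below the 3 siPRMT8 arrays without overlap, as 7.82% of all genes did. Krt19 apart, the naming rule already required this of siPRMT1 replicates 1 and 3, so only the place of siPRMT1 replicate 2 was free. Of the 862 genes, 36.2% had both groups apart with it put back, in either direction. None of these 8 genes was called with all arrays. siSCR replicate 1 was the highest of its group in Cyp2f2, Krt15, Krt13, Krt19, Anxa10, Agr2 and Sprr1a, and the part of that array's makeup in the controls' range was not tested.

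**Figure D3:**
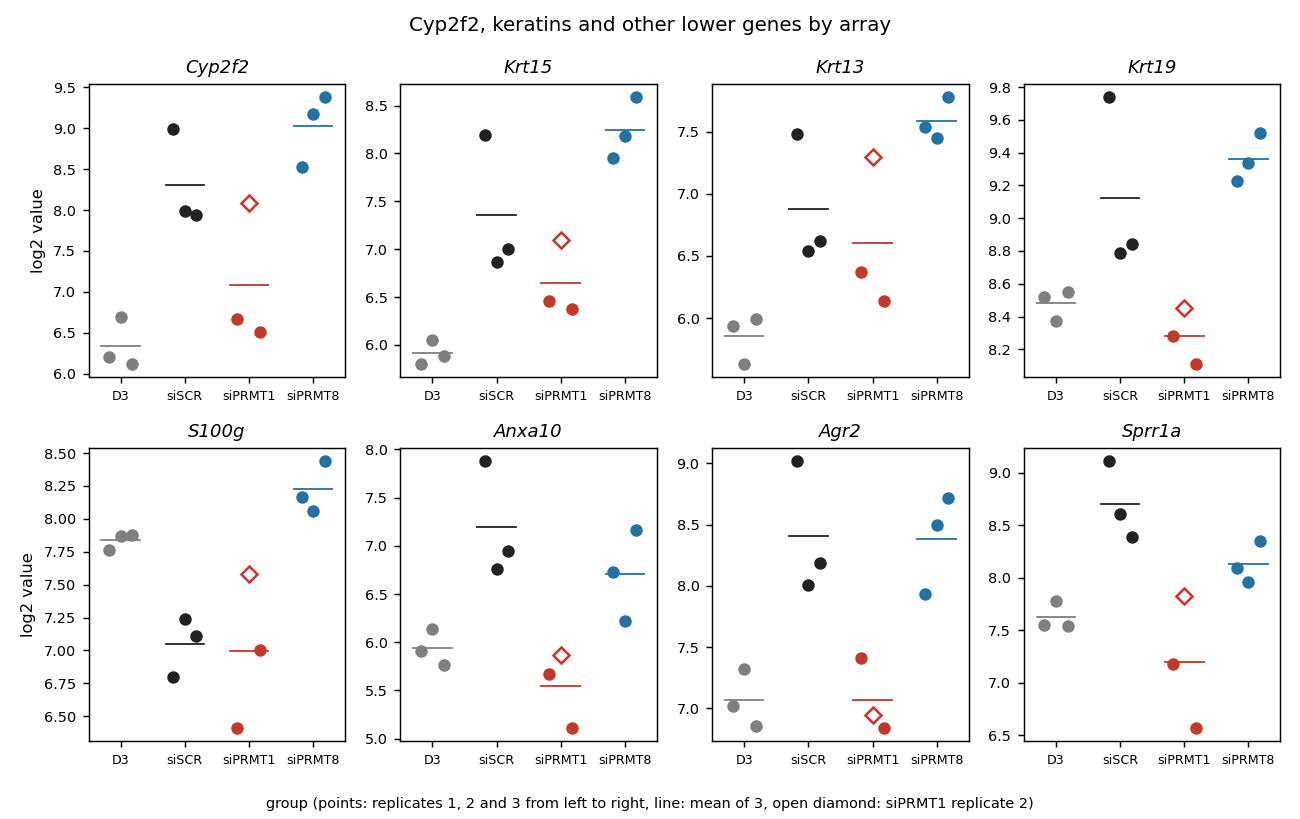
The log2 value (vertical axes) of Cyp2f2, Krt15, Krt13, Krt19, S100g, Agr2, Anxa10 and Sprr1a in all 12 arrays, by group (horizontal axes), with points for replicates, a line for the mean of 3 and an open diamond for siPRMT1 replicate 2. All siPRMT8 points lie above all siPRMT1 points in every panel, and in every panel except Agr2 the open diamond is the highest of the siPRMT1 points.

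The list of 20 epithelial and keratin genes did not follow as a whole. Krt19 was lower, Cldn4, Cldn6 and Elf3 were higher, and 16 did not pass without siPRMT1 replicate 2 (median 0.18). Cldn6, a claudin of embryonic epithelia, gave 9.90, 8.59 and 9.79 in siPRMT1 against 8.74, 9.24 and 8.76 in siPRMT8 (0.93, SE 0.174, adjusted p = 0.0165, and 0.52 with all arrays, adjusted p = 0.503), the array order of the germline genes. Epcam, Cdh1 and Krt8, which mark epithelia and stem cells in general, differed by 0.33, 0.28 and -0.06 and were not called. The mean level of the list was 7.53 to 7.86 in siPRMT1 and 7.63 to 7.75 in siPRMT8.

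With siPRMT1 replicate 2 left out, of 22 progenitor and radial glia genes 4 were called as lower and 0 as higher, while 18 did not pass (median -0.19), namely Sox9, Fabp7, Hes5 and Msi1. Msi1, an RNA-binding protein of neural stem cells, gave 8.90, 9.70 and 9.21 against 9.69, 9.49 and 9.71 (-0.58, SE 0.106, adjusted p = 0.016, and -0.36 with all arrays, adjusted p = 0.382). Of 23 dorsoventral and hedgehog genes 4 were lower, 0 higher and 19 did not pass (median -0.17): Pax3, Zic1, Gli3 and Foxa1. Pax3, a factor of the dorsal neural tube, gave 7.24, 8.57 and 7.78 against 8.54, 8.32 and 8.60 (-0.97, SE 0.165, 1.97-fold lower, adjusted p = 0.0134, and -0.62 with all arrays, adjusted p = 0.353). Zic1, another dorsal factor, gave 7.57, 8.23 and 7.86 against 8.41, 8.41 and 8.38 (-0.69, SE 0.108, adjusted p = 0.0111, and -0.52 with all arrays, adjusted p = 0.193). In Pax3 and Msi1 siPRMT1 replicate 2 lay among the siPRMT8 arrays, and in Zic1 just below them. None of the genes named here was called with all arrays.

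Most members of the signalling lists were not called, but in each list the share called as lower was above that of all genes. The calls went in both directions in the BMP and FGF lists and were only lower in the Wnt and Notch lists. Of all genes, 3.84% were higher and 1.93% lower in the fit used here. In the BMP and Id list, again with that array out, 4 of 23 were lower, 1 was higher and 18 did not pass (median -0.064). The Id genes encode inhibitors of neurogenic transcription factors that BMP signals induce: Id2 gave 9.73, 10.64 and 10.17 in siPRMT1 against 10.87, 10.72 and 10.80 in siPRMT8 (-0.84, SE 0.112, 1.80-fold lower, adjusted p = 0.00585, and -0.61 with all arrays, adjusted p = 0.199), Id3 differed by -0.73 (adjusted p = 0.016) and Id1 by -0.58 (adjusted p = 0.0111). The ligand Bmp4 went the other way, with 9.43, 8.39 and 9.50 against 8.67, 9.17 and 8.62 (0.64, SE 0.158, adjusted p = 0.0404, and 0.28 with all arrays, adjusted p = 0.692). In the Wnt list 4 of 29 were lower and 0 higher (median -0.15), with the ligands Wnt1 and Wnt5a, the receptor Fzd10 and the feedback target Axin2. Fzd10 gave 6.40, 7.53 and 6.55 against 7.39, 7.02 and 7.32 (-0.77, SE 0.11, adjusted p = 0.0073, and -0.42 with all arrays, adjusted p = 0.493). In the FGF list 3 of 23 were higher and 2 lower (median -0.017). Fgf15, a factor of the neural tube, gave 7.90, 9.65 and 8.34 against 9.51, 8.87 and 9.56 (-1.19, SE 0.203, 2.28-fold lower, adjusted p = 0.0135, and -0.68 with all arrays, adjusted p = 0.458), with siPRMT1 replicate 2 the highest of the 6. Of the 21 Notch genes, Hes5 and Dtx4 were lower and none higher.

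Guidance and adhesion molecules, which place axons and cells, held the most lower calls of any list and were also the longest list. As a share of members tested, the progenitor list with 4 of 22 lower came close, and 1.93% of all genes were lower. Of 41 tested, 8 were lower and 0 higher without siPRMT1 replicate 2 (median -0.25), and with all arrays Sema3c alone was called. Besides Sema3c these were the Eph receptors Epha3 and Epha7, the netrin receptors Dcc and Unc5c, the cadherins Cdh2 and Cdh11 and the protocadherin Pcdh8. Dcc gave 8.36, 9.55 and 8.92 in siPRMT1 against 9.39, 9.40 and 9.42 in siPRMT8 (-0.76, SE 0.192, adjusted p = 0.0436, and -0.46 with all arrays, adjusted p = 0.483), and Epha7 gave 8.93, 10.02 and 9.48 against 10.02, 9.82 and 9.93 (-0.72, SE 0.152, adjusted p = 0.0252, and -0.45 with all arrays, adjusted p = 0.415). For both, siPRMT1 replicate 1 was the lowest of the 6 knockdown arrays and siPRMT1 replicate 2 stood with or above siPRMT8. siSCR replicate 1 read lower still, at 8.30 for Dcc and 8.62 for Epha7, while all D3 arrays read above siPRMT1 replicate 1. Cdh11 gave 9.52, 9.91 and 9.67 against 10.01, 10.07 and 10.09, which do not overlap (-0.46, SE 0.0797, adjusted p = 0.014, and -0.35 with all arrays, adjusted p = 0.193).

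None of 28 pan-neuronal, 16 glutamatergic, 15 GABAergic, 17 neuropeptide or 16 motor, sensory and monoaminergic genes was called in either fit, and neither was any of 26 Hox genes. Of 28 synaptic genes Homer2 was lower, and of 22 voltage-gated channel genes Kcnj3 and Scn8a were lower, without siPRMT1 replicate 2. Kcnj3, a potassium channel subunit, gave 7.11, 7.71 and 7.40 against 8.12, 7.78 and 8.21 (-0.78, SE 0.171, 1.72-fold lower, adjusted p = 0.0274, and -0.63 with all arrays, adjusted p = 0.201). Among 18 proneural genes Neurog2, Nhlh2 and Tcf12 were lower and Neurod1 was higher, the last with 7.04, 6.59 and 6.99 against 6.37, 6.47 and 6.52, which do not overlap (0.57, SE 0.076, adjusted p = 0.00597, and 0.42 with all arrays, adjusted p = 0.171). The median differences of the pan-neuronal and synaptic lists were -0.051 and 0.038.

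Single members of lists for other cell types were also higher in siPRMT1 replicates 1 and 3. Cd68, a lysosomal protein used to mark macrophages, gave 8.93, 7.69 and 8.72 against 7.69, 8.14 and 7.80 (0.95, SE 0.139, adjusted p = 0.00845, and 0.57 with all arrays, adjusted p = 0.394). Pecam1, an adhesion molecule of endothelium and also of stem cells, gave 7.67, 6.11 and 7.27 against 6.36, 6.87 and 6.24 (0.98, SE 0.198, adjusted p = 0.0213, and 0.52 with all arrays, adjusted p = 0.542). Each was the only called gene of its list, 1 of 8 myeloid genes tested (of 15 on the array) and 1 of 14 endothelial genes. Of all genes 3.84% were higher in this fit, so 1 call in lists this short is no result about these cell types. The mean level of the myeloid list was 6.28 to 6.50 in siPRMT1 and 6.09 to 6.26 in siPRMT8, and that of the endothelial list was 6.63 to 6.77 and 6.54 to 6.60; the part of such cells in the result was not tested. Phlda2, an imprinted gene of the placenta, gave 8.18, 7.38 and 8.15 against 7.19, 7.19 and 7.36, which do not overlap (0.92, SE 0.112, 1.89-fold, adjusted p = 0.00454, and 0.66 with all arrays, adjusted p = 0.203). Of 22 immediate early genes 4 were higher and 0 lower (Jund, Nr4a1, Dusp1 and Atf3).

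**Figure D4:**
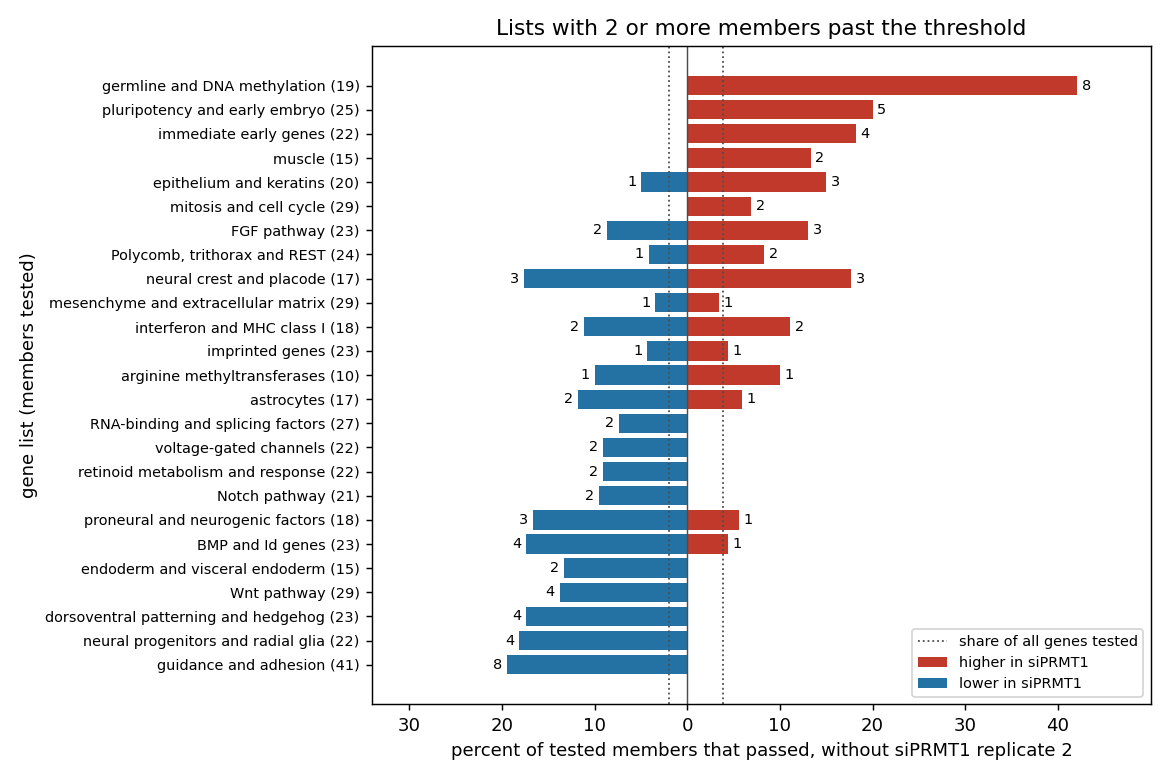
The share of tested members (horizontal axis, percent) that were higher (red, right) or lower (blue, left) in siPRMT1 without siPRMT1 replicate 2, for the 25 lists with 2 or more called members (vertical axis, members tested in brackets and called counts beside the bars). The dotted lines mark the shares of all genes tested, 3.84% higher and 1.93% lower, and germline and pluripotency genes stand at the top with guidance and progenitor genes at the bottom. The lists were written with earlier results of these data known.

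The cluster of miR-302 and miR-367, a group of microRNAs that stem cells transcribe together, was picked here after its values were seen. Its 5 hairpins lie within 580 bases at chr3:127545228-127545807 on the plus strand (GRCm38.p6), inside the span of Larp7. The RefSeq table holds 9 mature arms of these hairpins. It has 4 arms of the 3p side and none for miR-302a, and these 4 are shown with the seed, bases 2 to 8, in capitals. Among those shown, miR-302b and miR-302d share a seed, that of miR-302c is the same run moved by a base, and that of miR-367 is another.
miR-302b-3p: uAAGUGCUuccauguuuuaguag
miR-302d-3p: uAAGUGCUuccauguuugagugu
miR-302c-3p: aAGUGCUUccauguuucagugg
miR-367-3p: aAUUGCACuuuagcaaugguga
The arrays read the hairpin region of the RNA and not these mature forms. Of the 5 probe sets only that of Mir302d passed the filter on dim genes, so only Mir302d was tested. Its means in D3 and siSCR (4.61 and 4.38) lay under the cut of 5.43, and it would not have passed without the siPRMT8 arrays, where it is highest. The other 4 were dim, have no detection call and are given by array with no test.

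Mir302d gave 5.48, 7.21 and 5.87 in siPRMT1 and 7.78, 6.43 and 8.01 in siPRMT8, against 4.13 to 4.60 in siSCR and 4.46 to 4.78 in D3. All 6 knockdown arrays were above all 6 controls, siPRMT8 replicates 1 and 3 were highest, and siPRMT1 replicate 2 and siPRMT8 replicate 2 each lay toward the other group. Without siPRMT1 replicate 2 the difference was -1.73 (SE 0.361, adjusted p = 0.0237), and with all arrays -1.22 (SE 0.435, adjusted p = 0.305). The dim probe sets had their arrays in a like order: Mir302a read 4.04, 6.47 and 5.12 in siPRMT1 against 7.08, 5.47 and 7.30 in siPRMT8, and Mir302c 4.35, 6.34 and 5.05 against 7.21, 5.64 and 7.46. Mir302b (2.86 to 4.79 in siPRMT1 and 4.32 to 5.85 in siPRMT8) and Mir367 (2.66 to 3.86 and 3.36 to 4.96) were dimmer still. The 5 probe sets come from one region of the genome and are not independent of each other.

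Against siSCR, Mir302d was higher by 3.03 in siPRMT8 (adjusted p = 0.00126) and by 1.81 in siPRMT1 (adjusted p = 0.0148), and against D3 by 2.79 (adjusted p = 0.00114) and 1.58 (adjusted p = 0.0202). The control arrays of Mir302d all read under the cut of the filter on dim genes, so the size of these differences rests on dim values. Larp7, whose span holds the cluster, gave 8.68, 8.85 and 8.60 in siPRMT1 against 8.91, 8.73 and 9.07 in siPRMT8 and was not called between them (-0.20 with all arrays, adjusted p = 0.531, and -0.26 without siPRMT1 replicate 2, adjusted p = 0.23). Like Mir302d it was higher in siPRMT8 than in siSCR (0.57, adjusted p = 0.00581) and D3 (0.53, adjusted p = 0.00598), and in siPRMT1 it was higher than in siSCR (0.37, adjusted p = 0.0433) and not called against D3 (0.33, adjusted p = 0.0524). These comparisons share their arrays with the direct one.

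**Figure D5:**
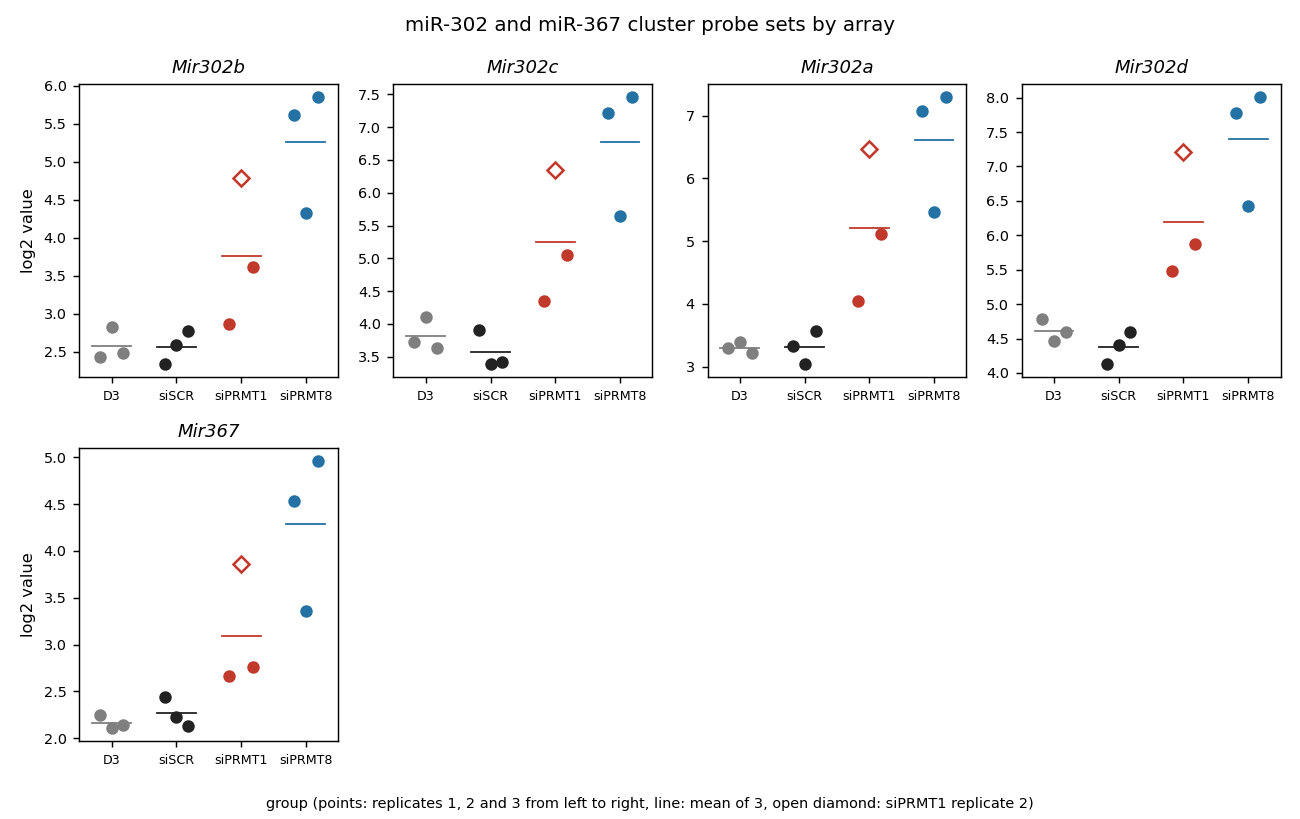
The log2 value (vertical axes) of the 5 probe sets of the miR-302 and miR-367 cluster in all 12 arrays, by group (horizontal axes), with points for replicates, a line for the mean of 3 and an open diamond for siPRMT1 replicate 2. siPRMT8 replicates 1 and 3 are the highest points of every panel, and siPRMT8 replicate 2 lies below the open diamond in each.

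No chromosome as a whole separated the lines. The median difference of the genes of each of 20 chromosomes lay between -0.042 and 0.039 with all arrays and between -0.021 and 0.03 without siPRMT1 replicate 2.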

How the data were processed

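Total RNA of each culture was purified on columns and hybridised as biotin-labelled cDNA to 1-colour Affymetrix whole-transcript arrays, per the labels' protocols. The authors deposited 1 log2 value for each of 35556 probe sets on 12 arrays; how background, summarisation and normalisation were handled is not given in the sources used here. That the scale is log2 follows from the range (0.97 to 13.54). Array medians differed by at most 0.023 and nothing was rescaled.

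Of the probe sets, 21789 had 1 gene symbol in the platform annotation and were used. The probe set with the highest mean stood for a gene (19938 genes), and the lowest 25% by mean (under 5.43) were left out, which left 14953. Symbols were updated by gene ID through RefSeq (GRCm38.p6; 21698 matched). limma 3.58.1 in R 4.3.3 fitted 4 group means to all 12 arrays, with siPRMT1 minus siPRMT8 as the contrast, and p-values were adjusted over all 14953 genes. SE is limma's moderated standard error. The script was tested on simulated data.

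The comparison, the gene lists and the rule for named genes were chosen with earlier results of these data known. Named were the genes with the largest fold among those that passed with groups not overlapping (12 in each direction with all arrays, 8 without siPRMT1 replicate 2), and up to 2 passing members of each of 46 lists in each direction. Genes named beside these are further list members or were chosen after their values were seen, such as the miR-302 and miR-367 cluster. Replicate numbers do not pair the arrays: deviations from the group means of same-numbered siPRMT1 and siPRMT8 arrays correlated at -0.416, -0.564 and 0.042 across genes.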

Additional observations from a re-analysis of the deposited data

How the results depend on the processing

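None of the 23 genes called with all arrays changed sign under an alternative; 229 of their refits kept the call and 181 lost it. For 105 genes called without siPRMT1 replicate 2 (those named by the rule and all called list members), 868 refits kept the call, 1013 lost it and 9 changed sign. All 9 were fits that kept siPRMT1 replicate 2: without siPRMT1 replicate 1, Sycp3 gave -0.297, Esrrb -0.091, Fgf1 -0.056, Tet1 -0.02, Stag3 -0.009 and Gli3 0.013; without siPRMT1 replicate 3, Sycp3 gave -0.173 and Esrrb -0.005; without siPRMT8 replicate 1, Sycp3 gave -0.069. Over all fits with 1 further array out, the values at the other end were 1.11 for Sycp3, 0.645 for Esrrb, 0.362 for Fgf1, 0.701 for Tet1, 1.081 for Stag3 and -0.674 for Gli3. With siPRMT1 replicates 1 and 2 both left out, 104 of the 105 lost the call. The count of 23 (13 higher, 10 lower) was 2 (1 and 1) when only the knockdown arrays were fitted, when D3 was left out of the fit, and under a 1.2-fold minimum. With array weights, which give an array that stands apart less weight, it was 1046 (625 and 421). Leaving out 1 array gave 2 to 862 genes, 1 to 574 higher and 1 to 288 lower. The count was 17 with no filter on dim genes, 28 with a stricter one, and between these under quantile normalisation, centring on the median, either other treatment of probe sets, and a trended robust variance.

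Without siPRMT1 replicate 2 the count was 862 (574 and 288), against 23 (13 and 10) with it, and 652 when only the knockdown arrays were fitted. The following alternatives were chosen after seeing the data. The count was 573 with no filter on dim genes (187 lower), 1305 with array weights (481 lower), and 1901 (1134 and 767) when siSCR replicate 1 was left out as well. Leaving out a further knockdown array, or another one in place of siPRMT1 replicate 2, gave 2 to 1108 genes, 1 to 744 higher and 1 to 364 lower.

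With the replicate number as a block the counts were 14 (9 higher and 5 lower) with all arrays and 605 (416 and 189) without siPRMT1 replicate 2. The numbers share no origin that the labels state, and same-numbered arrays did not deviate together. The causes of these shifts were not tested beyond the fewer arrays or genes in a fit.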
